A study of Homo sapiens with 6 samples.

Results

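The open regions of the long arm of chromosome 17 (17q) were taken as every ATAC-seq peak on chromosome 17 that starts at or beyond base 25500001 of hg38. Over the 6 libraries of the series this gave 69122 of 1044250 peaks. By library these were 12050 and 10198 (naïve), 16644 and 15475 (R1) and 7169 and 7586 (R2). The short arm (17p, the 6702 peaks that start before that position) served as the contrast.

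In ATAC-seq the transposase Tn5 inserts sequencing adapters into accessible DNA, and a peak is a stretch with more tags than the background of its library. All cells were SK-N-AS, an established human neuroblastoma line, grown out in culture from xenograft tumors in mice. Naïve cells came from a vehicle-treated xenograft, and R1 and R2 came from xenografts that had relapsed for the second time and were harvested during a further cycle of indisulam, a degrader of the splicing factor RBM39; the cell lines themselves were then not treated. Each of the 3 cell lines gave 2 libraries, and nothing in the labels says whether these were separate cultures, so differences between libraries may be technical.

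Unbalanced gain of 17q is a frequent chromosomal change in neuroblastoma, and the gained part usually reaches the end of the arm. The arm carries genes named in that context, such as BIRC5, an inhibitor of apoptosis, and PPM1D, a phosphatase that dampens p53 signalling, next to clusters such as HOXB and the type I keratins. The number of fragments that a region yields in ATAC-seq depends on how open it is and on how many copies the cells carry. Copy number was not measured here, so the 2 cannot be told apart in any value below.

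The libraries differed in depth. The background rate behind the peak calls, recovered from the lists in tags per window, was 2.29 and 1.35 (naïve), 7.94 and 5.43 (R1) and 0.85 and 0.899 (R2), and longer lists went with higher rates. Numbers of peaks were therefore compared only within a library, as a density relative to that library's own genome-wide density, as percentile ranks, or at equal list length. A check of cell state found a peak in all 6 lists near the starts of the adrenergic neuroblastoma markers HAND2, GATA3 and ISL1 and of 3 of 5 mesenchymal ones (PRRX1, FOSL1 and VIM); the adrenergic enzyme genes TH and DBH had one in 4 and 5 lists. Of 4 markers of other cells, PTPRC and CD3E of blood cells had none in any list, while PECAM1 of endothelium had one in 4 lists and EPCAM of epithelium in 3. The part of other cells in the results was not tested.

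The 7 windows of 101 bases printed here show the kinds of sequence under the 17q peaks. The first 3 are the 17q regions with the best mean rank over the 6 libraries. The next pair are the region whose rank was raised most in the resistant libraries and one of the 3 whose rank was lowered most. The last pair are regions found in only 1 cell line. All are the plus strand of hg38, centred on a summit, in lower case with the letters of the motifs searched in capitals (GGGCGGG for KLF/SP and AGGGGGC for the core of CTCF, on either strand, where overlapping matches run together).
CCDC200 intron, chr17:43251626-43251726: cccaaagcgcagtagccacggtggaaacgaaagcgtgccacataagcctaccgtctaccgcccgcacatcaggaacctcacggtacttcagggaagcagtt
CENPX intron, chr17:82023052-82023152: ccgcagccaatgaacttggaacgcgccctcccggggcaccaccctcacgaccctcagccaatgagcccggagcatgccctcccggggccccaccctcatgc
64 bp from the RAB40B start, chr17:82698712-82698812: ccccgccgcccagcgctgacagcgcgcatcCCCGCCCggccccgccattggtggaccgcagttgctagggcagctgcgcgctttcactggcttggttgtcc
KCTD2 intron, chr17:75036753-75036853: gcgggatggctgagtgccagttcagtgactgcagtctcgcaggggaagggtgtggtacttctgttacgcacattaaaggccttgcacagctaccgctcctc
RPTOR intron, chr17:80825921-80826021: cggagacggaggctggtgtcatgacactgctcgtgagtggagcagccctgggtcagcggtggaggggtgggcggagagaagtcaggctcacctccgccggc
intergenic, 3982 bp from the NOG start, chr17:56597631-56597731: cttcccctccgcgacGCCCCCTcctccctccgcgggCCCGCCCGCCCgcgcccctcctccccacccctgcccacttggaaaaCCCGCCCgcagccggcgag
intergenic, near the centromere, chr17:26833117-26833217: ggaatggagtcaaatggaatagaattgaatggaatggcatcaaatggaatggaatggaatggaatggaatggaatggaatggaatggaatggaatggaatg

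Peaks were several times denser on 17q than in the genome as a whole in every library. The relative density, peaks per Mb over the genome-wide value of the same library, was 3.96 and 4.49 (naïve), 2.49 and 2.70 (R1) and 5.41 and 5.26 (R2). Among 24 chromosome units, with chromosome 17 split into its arms, 17q was at place 2 in both naïve libraries, place 3 in both R1 libraries and place 1 in both R2 libraries. On 17p the relative density was 0.424 and 0.451 (naïve), 0.913 and 0.941 (R1) and 0.523 and 0.542 (R2). All 6 libraries thus had 17q above 1 and 17p below 1.

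The arm was not uniform. In 250-kb bins the density rose in 2 places, and the arm was divided there, from the values themselves, into a proximal segment (from 25500001), a middle segment (from 38250001) and a distal segment (73250001 to the end of the chromosome at 83257441). The boundaries are a description and were not tested. In the proximal segment the relative density was 0.818 and 0.668 (naïve), 1.398 and 1.30 (R1) and 0.637 and 0.586 (R2). In the middle segment it was 3.38 and 3.41, 2.54 and 2.64, and 3.33 and 3.26 in the same order. In the distal segment it reached 10.0 and 13.2 (naïve), 3.73 and 4.70 (R1) and 18.8 and 18.3 (R2). The order of the segments was the same in every library, as the plot of relative density by segment shows.

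**Figure D1:**
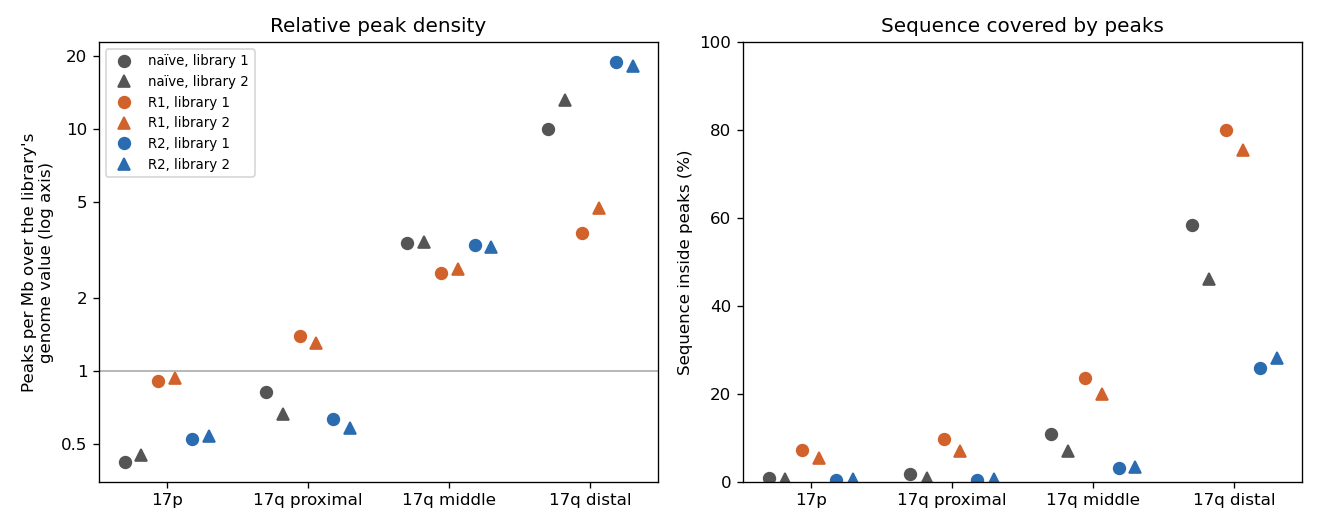
Peaks on 17p and on the 3 segments of 17q, 1 point per library (circles for the first and triangles for the second library of naïve cells, R1 and R2). Left, peaks per Mb over the library's genome value on a log axis, with a line at 1; right, the percentage of sequence inside peaks. Distal 17q has the highest point of every library in both panels, from 3.73 to 18.8 on the left and from 25.9% to 80.2% on the right.

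In the deeper libraries neighbouring peaks of the distal segment ran together, which lowers a count of peaks. Peaks covered 58.4% and 46.2% of distal 17q (naïve), 80.2% and 75.5% (R1) and 25.9% and 28.2% (R2), against 0.928% to 8.37% of the genome. The deepest library, the first of R1, had the fewest distal peaks, 4296, and the widest, with a median width of 731.5 bp against 389 bp in its whole list. The widest peaks on the arm were 82831 bp in R1 and 78168 bp in naïve cells, both from within BAIAP2, a scaffold of the actin cytoskeleton, and the widest of R2 was 16722 bp, at AATK. Between 81000001 and 81500000 peaks covered 61.5% and 66.0% of the sequence even in the R2 libraries, and 95.4% and 93.7% in R1.

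The rise at the distal boundary was sharp. The last Mb before 73250001 was covered to 9.91% and 5.38% (naïve), 35.9% and 27.0% (R1) and 1.93% and 2.00% (R2). The Mb after it, with the same number of protein-coding starts (5), was covered to 48.8% and 30.1%, 76.3% and 69.7%, and 10.2% and 11.8%. The proximal boundary was less clean, with an island of coverage within the 2 Mb before it. Here the Mb before 38250001, with 13 coding starts, was covered to 0.939% and 0.509% in naïve cells, and the Mb after it, with 22, to 18.7% and 12.4%. The 250 kb just before it held 4 coding starts and no peak in any library. Within the middle segment, the stretches from 51500001 to 54500000, with 2 coding starts, and from 68750001 to 72000000, with 8, had at most 1.56% of their sequence in peaks in any library.

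**Figure D2:**
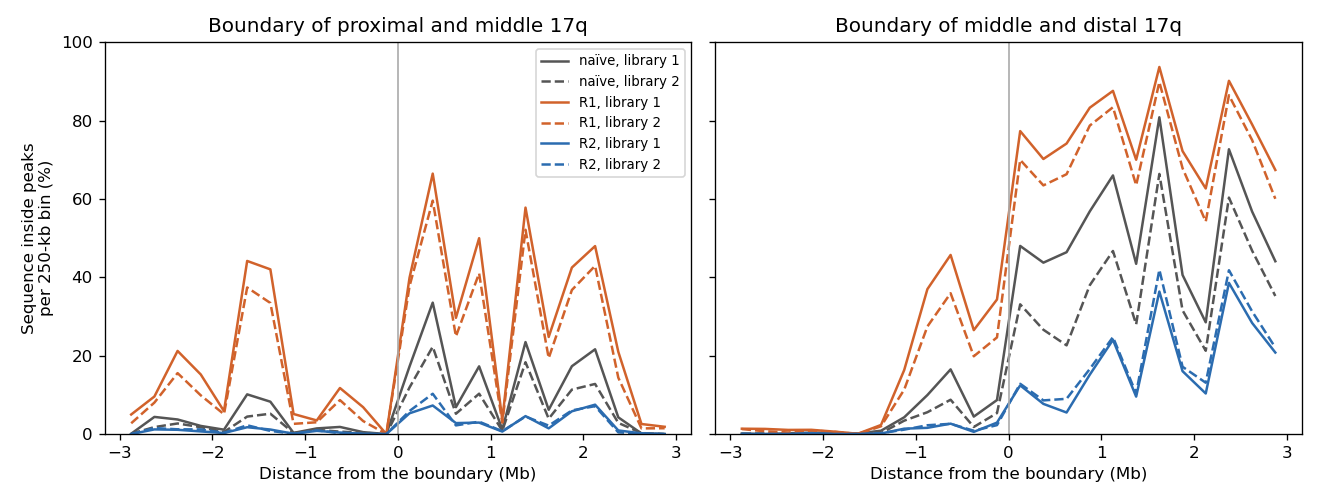
Percentage of sequence inside peaks per 250-kb bin within 3 Mb of the boundaries between proximal and middle 17q (left) and between middle and distal 17q (right); the horizontal axis is the distance from the boundary in Mb, and solid and dashed lines are the first and second library of naïve cells, R1 and R2. All 6 lines rise across the right boundary, in the first R1 library from 35.9% over the Mb before it to 76.3% over the Mb after it.

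Gene density and base composition also differ along the chromosome. Coding starts stood at 13.7 per Mb on 17p, 12.2 in proximal, 13.9 in middle and 19.8 in distal 17q. Bases that were G or C made up 45.4%, 44.1%, 43.7% and 52.2% of the same stretches, so that distal 17q was the richest in both and the other 3 stretches were alike. Over the 12 bins of 5 Mb on 17q, the density of peaks had a Pearson correlation of 0.445 to 0.633 with that of coding starts and of 0.720 to 0.894 with GC content, depending on the library; the bins share libraries and neighbours, and these are descriptions. Bins of other chromosomes with GC content within 2 percentage points and with 0.5 to 2 times the coding starts per Mb gave a second reference, added after seeing the data. The bin from 75000001 had relative densities of 9.80 and 13.1 (naïve), 3.91 and 4.82 (R1) and 18.4 and 18.2 (R2), and the 13 like bins had medians of 6.35 and 7.47, 3.03 and 3.58, and 5.73 and 5.72; 1 of the 13 was higher in the first R1 library and none in the other libraries. The bin from 70000001 stood at 5.35 and 6.05, 2.67 and 3.14, and 5.98 and 5.90, with medians of 1.10 to 1.73 in its 83 like bins, of which 17 and 9 were higher in the R1 libraries and 1 in each of the others. The last bin, from 80000001, stood at 9.27 and 12.5, 3.37 and 4.22, and 21.4 and 20.04, with 6 like bins, of which 1 was higher in each naïve and R1 library and none in R2. By contrast the bin from 30000001, in the proximal segment, lay below the median of its 87 like bins in every library, with 50 to 77 of them higher.

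Signal at gene starts rose along the arm in the same order. For each protein-coding start with a peak summit within 1000 bp in all 6 lists, the tags of the best peak were divided by the library's background rate, which scales them for depth. The median over the 137 such starts of distal 17q was 29.7 and 35.5 times the background (naïve), 36.8 and 37.0 (R1) and 40.0 and 37.8 (R2). Over the 280 starts of the middle segment it was 17.3 and 20.7, 22.6 and 23.7, and 24.7 and 23.4, and over the 45 proximal starts 11.4 and 13.3, 16.999 and 17.3, and 17.6 and 15.6. The 95 starts of 17p lay at 10.1 to 16.5. Relative to the median of all 9990 such starts, distal 17q stood at 1.88 ± 0.0878 (SD over 6 libraries), middle 17q at 1.15 ± 0.0384, proximal 17q at 0.794 ± 0.0452 and 17p at 0.697 ± 0.0464, and no segment's range over libraries met that of the next on 17q. Relative to 17p the distal median was 2.71 ± 0.221. A start had to have a peak in the shallow R2 lists to count, which 70.7% of 17q starts and 40.8% of 17p starts did on average, so the 17p values come from its stronger starts.

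**Figure D3:**
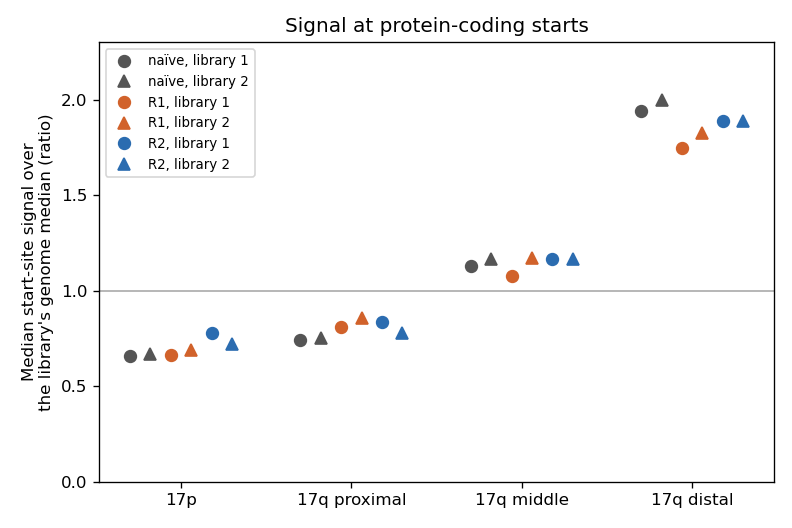
Median signal at protein-coding starts found in all 6 lists, over the genome-wide median of the same library (ratio, line at 1), for 17p and the 3 segments of 17q; 1 point per library of naïve cells, R1 and R2. The values climb from 0.657 to 0.778 on 17p to 1.75 to 2.00 on distal 17q, and the libraries of the 3 cell lines lie close together within a segment.

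Ranked among themselves by this signal, a choice made after seeing the data, the distal starts had a median percentile of 93.1 and 94.7 (naïve), 91.9 and 93.9 (R1) and 92.4 and 91.7 (R2). The 17p starts had medians of 17.04 to 30.2. Of 350 genomic bins with enough starts, the bins from 75000001 and 80000001 were between first and eleventh in each library, and a bin of chromosome 4 was at or above both in all 6.

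The strongest peaks of each library were then compared between naïve and resistant cells. Of the 20000 peaks with the lowest p, 17q held 10.8% and 11.9% (naïve), 7.46% and 8.10% (R1) and 10.1% and 10.9% (R2). The second R2 library lay between the naïve ones and the R1 libraries lay lowest. Neighbouring peaks that run together lower such a share as well. The median width of these 17q peaks was 1410 and 1069 bp (naïve), 2997 and 2481 bp (R1) and 648 and 703 bp (R2). Over all 20000 it was 808 and 717.5 bp, 1459 and 1372 bp, and 473 and 496 bp. The part of width in the share was not tested. The mean was 11.4 ± 0.735% in naïve cells (SD, n = 2 libraries) and 9.14 ± 1.62% in the resistant libraries (SD, n = 4 libraries of 2 cell lines). The difference was -2.22 percentage points (exact two-sided permutation test over 15 assignments of the libraries, p = 0.2). The smallest p that these assignments allow is 0.0667. The test takes libraries as exchangeable although each cell line gave 2, so it does not measure the spread between cell lines. Among the top 50000 the difference was -0.338 points, with 9.80% and 9.94% (naïve), 7.14% and 7.71% (R1) and 11.3% and 11.97% (R2), so that there both R2 libraries lay above both naïve ones. Within 1000 bp of a start lay 39.4 ± 1.401% of these 17q peaks (naïve), 47.1 ± 0.56% (R1) and 45.8 ± 2.25% (R2; SD, n = 2 each).

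Regions called in all 6 lists allowed the ranks of the same places to be compared. The first R2 list had 36449 such common regions, of which 4811 lay on 17q and 155 on 17p. Each was ranked by its p within each library among the common regions, in percentiles, and the ranks were adjusted for GC content. The median rank on 17q was 59.2 and 59.6 (naïve), 56.4 and 57.5 (R1) and 41.9 and 47.9 (R2). All 4 resistant libraries thus lay below both naïve ones, R1 by little. The median shift, resistant minus naïve, was -5.19 percentile points (R1 alone -0.731, R2 alone -9.42; exact two-sided permutation test, p = 0.133, smallest possible 0.0667), and over all common regions it was -0.0678. Among the 24 chromosome units the shift ran from -15.5 (chromosome 19) to 28.1 (chromosome 13), with 17q at place 22 from the highest. Chromosome 8 had a like shift of -5.57 (R1 alone -0.248, R2 alone -10.6). On 17p the median shift was 6.91 points, and the difference between the arms was -12.1 points (exact permutation test, p = 0.2). By segment the shift was 5.25 in proximal, -2.22 in middle and -6.99 in distal 17q, where R1 stood at -0.526 and R2 at -13.0.

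The width of peaks moved with this result. The 4811 common regions of 17q rested on 4684 peaks of the second R2 list but on 2790 and 3396 naïve peaks and 1880 and 2010 R1 peaks, so that several regions took their rank from 1 wide peak in the deeper lists. Kept to the 884 regions of 17q that overlapped a single peak of each list, none of which reached another common region (added after seeing the data), the shift was -2.52 points, and with an overlap of at least 0.5 of both peaks, which left 179 regions, it was -2.87. The difference between the arms was then -7.00 and -4.22. Without the first R2 library the shift was -3.26 (exact permutation test, p = 0.5), and without the second -3.37. The coding starts of 17q, ranked among themselves, had a median difference of -1.22 percentile points and those of distal 17q one of -0.656, against -0.392 over all 9990. The part of peak width in the shift was not otherwise tested.

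Of the 4811 regions, 268 (5.57%) ranked higher in all 4 resistant libraries than in both naïve ones and 796 (16.5%) ranked lower; over all common regions 13.3% were higher and 12.9% lower. Leaving out 1 library makes this easier to meet, and the number of regions apart, 1064 in all, then ran from 1245 to 2020, highest without the second naïve library. Over all common regions 26.2% were apart, and 29.4% to 47.6% without 1 library. Of the 12 bins of 5 Mb, the bin from 25500001 was higher in all resistant libraries, with a shift of 7.93, and 3 were lower, those from 45000001, 70000001 and 75000001, with -2.29, -6.71 and -8.12. Of all 445 bins of the genome 35.7% were higher and 8.31% lower. In the plot of ranks by bin, R2 lay lowest in the last 3 bins.

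**Figure D4:**
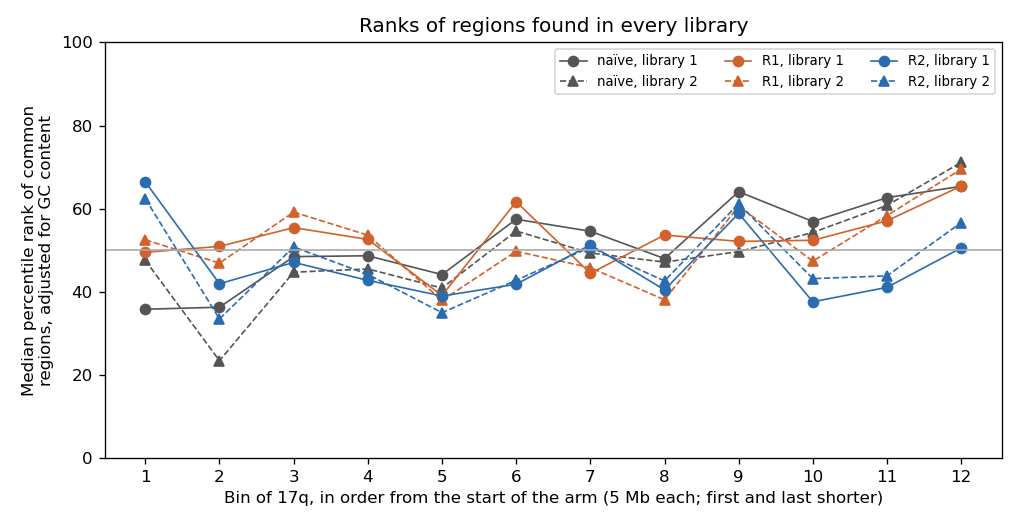
Median percentile rank, adjusted for GC content, of the regions found in all 6 libraries, in the 12 bins of 17q in order from the start of the arm; 1 line per library of naïve cells, R1 and R2 (circles with solid lines, first library; triangles with dashed lines, second), with a line at 50. In the bin before the last, the naïve libraries stand at 62.7 and 60.8, R1 at 57.1 and 58.3 and R2 at 41.1 and 43.8.

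Single regions moved much further. The KCTD2 intron window above belonged to a region ranked at 11.3 and 24.2 (naïve), 94.9 and 95.7 (R1) and 65.4 and 64.9 (R2), the largest rise among regions whose groups were apart; the R1 peaks behind it were 3864 and 4127 bp wide and the R2 peaks 335 and 362 bp. The RPTOR intron window, which holds none of the motifs searched, stood at 90.4 and 96.1 (naïve), 35.4 and 30.6 (R1) and 8.32 and 43.8 (R2). These were chosen for their shifts and are given as a description. The best-ranked region, in the CCDC200 intron and 23053 bp from a coding start, had unadjusted ranks of 99.6 to 99.8 in all 6 libraries from peaks of 237 to 246 bp.

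Strong regions found in 1 cell line only were counted next. A region was called restricted when it was among the top 20000 of both libraries of a cell line and overlapped no peak of the others. 17q held 0 of 11 regions restricted to naïve cells, 3 of 235 restricted to R1, 1 of 48 restricted to R2 and 0 of 36 shared by R1 and R2 but absent in naïve cells. Its share of the regions in the top of both libraries was 11.3%, 7.67% and 10.8% for naïve cells, R1 and R2. These counts and shares are not like for like. Distal 17q held 50.9% to 64.7% of the top 20000 peaks of 17q, and peaks covered 25.9% to 80.2% of it, depending on the library. That leaves little room there for a region without overlap, and the restricted regions found on 17q all lay outside it. The R1 regions lay 64 bp from the start of ALDOC, a glycolytic enzyme, 3982 bp from NOG, an inhibitor of bone morphogenetic proteins, and in ARSG, a lysosomal sulfatase, at mean percentiles of 95.8, 94.3 and 94.7. The NOG window printed above is rich in KLF/SP letters. The R2 region is the last window printed, which holds 14 copies of GGAAT in 101 bases, a satellite repeat to which reads cannot be assigned with certainty.

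Joined over the 6 lists, peaks of 17q made 17181 regions, of which 1943 (11.3%) were found in every library, 9511 (55.4%) only in R1, 358 only in naïve cells and 68 only in R2; the R1 lists were the deepest. Every library shared 24.4% of the distal regions, 8.26% of the middle ones and 3.86% of the proximal ones, against 5.11% on 17p. The distal segment thus had the highest shared percentage. Its joined regions were also the widest, with a median of 774 bp against 418 bp in middle 17q, 391 bp in proximal 17q and 423 bp on 17p. The part of width in the shared percentage was not tested. On 17p 77.4% of the joined regions were found only in R1.

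Sequence under the summits differed along the arm. Among common regions within 1000 bp of a start, letters of the KLF/SP family, factors that bind GC boxes of promoters, were within 50 bp of the summit in 39.0% of 59 proximal, 19.4% of 754 middle and 10.8% of 965 distal regions, against 24.6% of all 18187. NRF1 letters (GCGCATGCG) were in 0.207% of the distal regions near starts and 0.869% of all, and ETS letters (CCGGAAGT) in 0.518% and 1.91%. Away from starts, AP-1 letters (TGA, any base, then TCA) were in 3.81% of 2204 distal regions against 5.996% of all 18262, and the CTCF core in 4.45% against 5.96%; in the middle segment the CTCF core was in 9.28% of 797. These are descriptions, and not every class went the same way: near starts AP-1 letters were in 3.11% of distal regions and 2.49% of all, and away from starts ETS letters in 0.227% and 0.175%. The median GC content was 59.5% in distal regions against 62.9% in all. Near starts it was 69.1% in proximal, 62.7% in middle and 61.5% in distal regions against 65.3% in all, the same order as the KLF/SP letters. Those letters are all G or C, and the part of base composition was not tested. Letters of TEAD (ACATTCC) away from starts were in 1.18% of distal regions and 1.33% of all. For the E-box (CACGTG) the percentages were 2.95% and 2.71%, and for GATA factors (AGATAAG) they were 0.681% and 0.608%.

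Of the 840 protein-coding starts on 17q, 462 had a peak in all 6 lists and 71 in none. By the rank of their best peak within each whole list, 4 (0.866%) ranked higher in all 4 resistant libraries and 4 lower, against 4.37% and 2.11% of the 9990 starts over the genome. Such a rank also moves with the number of weak peaks in a list, and the R1 lists were the longest. Ranked among themselves, 36 (7.79%) were higher and 64 (13.9%) lower, against 12.2% and 13.4%. The 4 higher by rank in the list were those of SSTR2, a somatostatin receptor, with ranks of 67.3 and 71.3 (naïve), 98.3 and 98.4 (R1) and 74.6 and 87.2 (R2), and of STAC2, NPEPPS and CEP112, with differences of 7.01, 3.06 and 3.64. Among the 4 lower were LRRC59, SOX9 and SP2, with differences of -2.68, -2.18 and -0.587. These genes were named after their values were seen.

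Most genes discussed for 17q gain had a start peak in every library. Of 13 genes 11 had a peak in all lists, beside 462 of the 840 starts of 17q and 9990 of 20033 over the genome. The same shares stand beside the counts of the lists below. None of the 11 had groups apart, beside 0.866% of 17q starts in each direction. At that share 0 of 11 is no result about the list, nor about the next 3 lists, which had 11 such genes each. Here the median difference was -0.522 percentile points against -0.338 over all 17q starts. BIRC5, on the plus strand at 78214253 to 78225635, had start peaks 25.4 and 31.1 times the background (naïve), 33.7 and 33.7 (R1) and 29.4 and 32.3 (R2). PPM1D stood at 25.8 and 40.7, 35.9 and 38.1, and 43.5 and 32.3, and NME1, a nucleoside diphosphate kinase, at 21.4 and 19.98, 20.7 and 21.9, and 27.1 and 25.6. The groups overlapped for BIRC5 and PPM1D, and NME1 was highest in R2. By percentile rank the differences ran from -3.82 for BRIP1, a helicase of DNA repair, to 0.196 for RAD51C, a partner in homologous recombination; TRIM37, a ubiquitin ligase, stood at 0.0248. IGF2BP1, an RNA-binding protein, had a start peak in only 2 lists.

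Splicing genes were of interest because indisulam acts on a splicing factor. Of 13 on 17q, 11 had a peak in all lists, none with groups apart (0.866% of 17q starts in each direction), with a median difference of -0.124. SRSF1 and SRSF2 encode serine and arginine-rich splicing factors. SRSF1 stood at 23.2 and 24.4 times the background (naïve), 24.9 and 23.4 (R1) and 29.4 and 27.8 (R2). SRSF2, on distal 17q, stood at 31.0 and 40.7, 40.5 and 37.7, and 55.3 and 37.8. In these ratios both were highest in the first R2 library, which also had the highest median over all 9990 starts, 21.2. EFTUD2, a GTPase of the spliceosome, had the lowest difference, -7.11, with R2 ranks of 68.7 and 85.2 beside 91.8 to 96.8 elsewhere. CASC3, of the exon junction complex, and DHX8, a spliceosomal helicase, had the highest, 1.92 and 1.498. The peak near SUPT6H, a transcription elongation factor in the proximal segment, was found only in R1.

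Of 14 chromatin regulators 11 had a peak in all lists, again none with groups apart beside the 0.866% of 17q starts, with a median difference of -0.207. BRCA1 had the highest difference, 5.71, on ranks of 99.1 and 83.7 (naïve), 98.1 and 98.3 (R1) and 97.0 and 95.1 (R2), so the lower naïve library set it. EZH1, a histone methyltransferase, had the lowest, -4.78, with 69.1 in the second R2 library. KAT2A, an acetyltransferase, stood at 0.260 and CBX2, a Polycomb protein of distal 17q, at -1.79. SUZ12, a Polycomb subunit in the proximal segment, had a start peak in both R1 libraries and in 1 of R2 only.

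Of 15 signalling genes 11 had a peak in all lists, none with groups apart beside the same 0.866%, with a median difference of -0.640. NF1, a brake on RAS signalling in the proximal segment, had a weak peak of 4.81 times the background in 1 naïve library and none in the other. Its R1 peaks stood at 8.94 and 8.83 and its R2 peaks at 11.8 and 11.1. Depth limits how weak a called peak can be, so these ratios do not show a rise from naïve cells to R2. The median peak of the whole list was 6.56 and 8.88 (naïve), 4.03 and 4.42 (R1) and 11.8 and 11.1 (R2). NF1 thus lay at the list median in R2 and above it in R1. STAT5A, a transcription factor of cytokine signalling, had the lowest difference, -17.5, on ranks of 84.4 and 71.3 (naïve), 95.1 and 93.8 (R1) and 4.24 and 48.3 (R2). RNF43, a ubiquitin ligase of WNT signalling, was next with -6.58. RPTOR, a subunit of the mTORC1 kinase complex, and STAT3 had the highest, 2.03 and 1.96. For STAT5A, RNF43 and EFTUD2 both R2 libraries lay below all others, as the plot of start-site peaks shows.

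**Figure D5:**
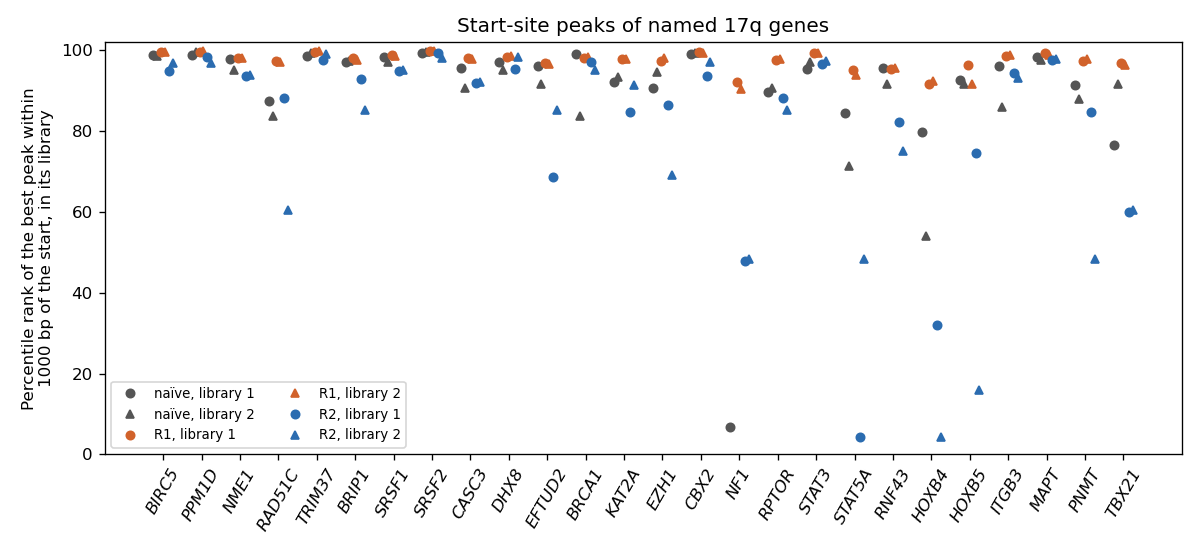
Percentile rank, within each library's whole list, of the best peak within 1000 bp of the start of named 17q genes, grouped by list from gain (BIRC5) to lineage (TBX21); circles are the first and triangles the second library of naïve cells, R1 and R2, and a missing point means no such peak. BIRC5, PPM1D, SRSF1 and SRSF2 sit above 94 in all libraries, and the lowest points belong to R2 and, for NF1, to a naïve library at 6.69.

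Clusters of related genes were counted in the same way, beside 462 of 840 starts of 17q with a peak in all lists and 71 with none. Of 10 HOXB genes, transcription factors of body patterning, HOXB4 and HOXB5 alone had a peak in all lists, with differences of -11.8 and -22.5. HOXB5 ranked at 92.7 and 91.8 (naïve), 96.5 and 91.8 (R1) and 74.6 and 15.9 (R2). Of 28 type I keratin genes, epithelial filament proteins, 8 had no peak in any list and KRT19 alone had one in all. Of 5 genes of the growth hormone cluster, whose near-identical sequences can share reads, GH1 and CSHL1 had one in all lists, with differences of -18.6 and 3.23.

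Among 10 lineage genes, 6 had a peak in all lists, and SOX9, a transcription factor of neural crest and cartilage, was the 1 with groups apart, at 98.7 and 99.1 (naïve), 97.4 and 97.9 (R1) and 97.0 and 94.5 (R2). Of the 17q starts with a peak in all lists 0.866% were lower in this way, and of the 9990 over the genome 2.11%. SOX9 was already named above for its values, and 1 such gene is no result about the list. ITGB3, an integrin, and MAPT, the tau protein of neurons, had the highest differences, 5.10 and 0.354, and PNMT, which makes adrenaline, and TBX21, a T cell transcription factor, the lowest, -7.67 and -5.72. COL1A1, a collagen of mesenchymal cells, NGFR, a neurotrophin receptor, and GFAP, a glial filament, lay inside peaks of all 6 lists, but in some lists the summit was farther than 1000 bp from the start.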

How the data were processed

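Peak lists of 6 ATAC-seq libraries, 2 each of naïve, R1 and R2 cells, were used. As the methods and labels state, the authors aligned reads with BWA 0.7.12-r1039, marked duplicates with Picard 1.65, filtered with samtools 1.3.1 (mapping quality of at least 1), removed mitochondrial reads, moved read ends by +4 and -5 bp, and ran MACS2 2.2.7.1 on each library (q of 0.01, extension 200 bp, shift 100 bp); bedtools 2.25.0 is also named. The methods name hg19 and the labels hg19 and hg38; the last peak on chromosome 17 ended at 83247428, within its hg38 length of 83257441, so hg38 was used, with genes of GENCODE release 44. The deposited values of each peak are the fold enrichment, a ratio, with −log10 p-values and −log10 q-values. The authors' counts of tags were recovered from the folds, each being tags plus 1 over the background rate plus 1, to within 0.000149 of a whole number. Depth limits which peaks were called, most in R2.

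Peaks were ranked by p, whose values tie because tags are whole numbers. Common regions were those of the first R2 list with at least 1 shared base in every list, and ranks were adjusted by the median departure in 20 bins of GC content over 250 bp either side of the summit. Groups were apart when all 4 resistant libraries lay beyond both naïve ones. Gene starts were canonical GENCODE starts, with the best peak whose summit lay within 1000 bp; bins of 5 Mb needed 10 regions. Tests were exact two-sided permutations over libraries, which took the 2 libraries of a cell line as exchangeable with the others. Always named were BIRC5, PPM1D, NME1, SRSF1, SRSF2 and NF1, and in each gene list the 2 members with the highest and the 2 with the lowest difference among those in all lists; of regions, the 3 with the best mean rank and the 3 highest and 3 lowest shifts could be named. The members, gene lists, markers and motifs were chosen with earlier results of these data known. The functions were tested on simulated data. Python 3.11.15, NumPy 2.4.6, pandas 2.3.3, SciPy 1.17.1 and matplotlib 3.10.9 were used. Some markers, genes and regions are not reported here.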

Additional observations from a re-analysis of the deposited data

Results flagged for a closer look

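For the whole of 17q and for its distal and proximal segments, the relative density of peaks moved in opposite directions in R1 and R2 against naïve cells, every library included, and the difference between R1 and R2 was not tested. For the whole of 17q, R1 minus naïve was -1.63 and R2 minus naïve 1.11. In distal 17q these were -7.4 and 6.94, and in proximal 17q the signs were turned, with 0.607 and -0.132. In the middle segment all 4 resistant libraries lay below both naïve ones, at 2.54 and 2.64 (R1) and 3.33 and 3.26 (R2) against 3.38 and 3.41. The background rates were highest in R1 and lowest in R2, as was the percentage of distal sequence inside peaks. That order is opposite to the relative density of whole and distal 17q and the same as that of proximal 17q. At equal list length, among the top 20000 peaks, the mean share of 17q was 11.4% (naïve), 7.78% (R1) and 10.5% (R2), and among the top 50000 it was 9.87%, 7.42% and 11.6%, so that the place of R2 against naïve cells changed with the list length. Equal list length does not make up for neighbouring peaks that run together. The signal at distal starts relative to the genome was 1.97, 1.79 and 1.89. Groups of 2 libraries were not searched for outliers.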

How the results depend on the processing

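The difference in the 17q share of top peaks, the rank shift of 17q and the difference between the arms kept a negative sign under every alternative tried (a stricter −log10 q of at least 5, ranking by fold, other list lengths, overlaps, anchors, arm starts and classes of distance, no GC adjustment, each library left out), and none could reach 0.05. Without 1 library the share differed by -2.8 to -1.66 points, the shift ran from -6.55 to -3.26 and the difference between arms from -15 to -8.65. With the replicate numbers as a block the values were the same (-2.22, -5.19 and -12.1), with exact permutation p = 0.222 for each of the 3, over 9 assignments; deviations of libraries with the same number correlated at -0.0509 to 0.023, so the numbers did not pair the libraries. Of 124 alternative values 104 stayed within their limits, but some of these could not move. Ranking by fold gave the main value wherever it was tried. The stricter q left the 17q share of top peaks and the start-site shares unchanged. Leaving out a library of another group left a group's relative density and start-site share as they were. The 104 values are thus not a count of separate checks. Bins apart on 17q were 10 of 24 with 2-Mb bins, 2 of 7 with 10-Mb bins, against 4 of 12, and 4 to 8 without 1 library (8 without the first naïve, 7 without the second naïve or the first R2 library). Regions apart were 1064 in the main analysis, 210 of 884 with 1 peak per region, 56 of 179 at an overlap of 0.5, and 1245 to 2020 without 1 library (2010 and 2020 without a naïve library, 1854 and 1843 without an R2 library). Over all common regions the percentages apart were 26.2%, 26.4%, 26.3% and 29.4% to 47.6% in the same order. Relative density became 5.5 in R2 with the arm from 27500001, and 5.56 in R2 and 4.68 in naïve cells at the stricter q, from 5.33 and 4.23. Start-site shares were 51.9%, 66% and 55.8% in naïve cells, R1 and R2 among the top 10000 and 29.3%, 30.4% and 33.8% among the top 50000. Shallow R2 lists limit which starts and regions could be compared.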
